A study of Mus musculus with 12 samples.

Results

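The genes described here are 34 cell cycle genes of the mouse, among 22367 protein-coding genes of the GENCODE annotation of the mm9 genome, and they were chosen by their membership of a named list because several of their promoters carried a peak of H3K27me3 only in knockout cells of the first of 2 experiments. The values that chose them were the bases under H3K27me3 peaks within 2500 bp of the transcription start site (TSS, the annotated 5′ end of the gene) and within the gene body, in 10 peak lists. The contrast of wild type and knockout in experiment 1 is therefore given as a description, with no test. All 34 genes were found in the annotation and none was left out by a filter.

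The mark was mapped by chromatin immunoprecipitation and sequencing (ChIP-seq) in immortalized mouse embryonic fibroblasts (iMEFs) of 1 clone, C2, obtained by limiting dilution from Ezh2 flox/Δ;ROSA26-CreERT2 fibroblasts transformed with a c-MYC retrovirus. In wild-type cells the remaining Ezh2 allele was intact, and in knockout cells it had been deleted by 4-hydroxytamoxifen, so that all groups shared the Myc transgene and the allele lost beforehand, while the labels name them Ezh2 WT/WT and Ezh2 -/-. Experiment 1 held 2 wild-type and 2 knockout libraries. Experiment 2 held 2 wild-type and 2 knockout libraries and 1 library each of cells that received a Flag-Ezh1 or a Flag-Ezh2 retrovirus before the endogenous gene was deleted, called the Ezh1 and Ezh2 rescue. The experiments used different H3K27me3 antibodies and sequencing platforms. Values of the 2 experiments are set side by side and were not tested against each other. A list holds the position and width of its peaks and no height or read number. It therefore gives the places where the mark was called, not its level, and it does not give sequencing depth. The narrowest peak was 150 bp in experiment 1 and 550 bp or more in experiment 2.

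H3K27me3 is deposited by the Polycomb complex PRC2, whose catalytic subunit is Ezh2 or its paralog Ezh1, and it is found over promoters of silent developmental genes. The cell cycle genes encode cyclins and their kinases, the proteins that license and replicate DNA, and the mitotic kinases and checkpoint proteins. Many of them are switched on together in dividing cells by E2F factors, at E2F sites, and by the MuvB complex, at CHR elements that often accompany CCAAT boxes.

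Over the whole series, peaks covered 141 and 177 Mb in the wild-type libraries of experiment 1 and 24.3 and 56.7 Mb in its knockout libraries. In experiment 2 the lengths were 14.9 and 11.3 Mb in wild type, 0.0588 and 0.481 Mb in the knockout, 256 Mb with Ezh1 rescue and 80.6 Mb with Ezh2 rescue. Of 8 marker genes of other lineages, 8 had a promoter peak in both wild-type libraries of experiment 1 and 0 in its knockout libraries. Of 10 fibroblast markers, 0 had one in wild type, and Vim and Prrx1 had one in both knockout libraries of experiment 1. Peaks covered at least 25.5% of the Vim promoter in each of these libraries, and 11.8% and 6.68% of that of Prrx1. Actb had 3.26% in knockout replicate 2 of experiment 1 alone, and the study used actin as a negative control for ChIP. Knockout-only peaks were thus not confined to cell cycle genes. Neurod2, of the other lineages, had 91.0% in knockout replicate 2 of experiment 2. The promoter of Ezh2 lay under no peak in any of the 10 lists, so the lists did not check the genotype.

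Of the 34 genes, 6 carried a peak at the promoter in each of the knockout libraries of experiment 1 and in neither wild-type library: Ccna2, Ccnb1, Mcm7, Pcna, Mki67 and Top2a. A further 5 (Mcm5, Orc6, Cdt1, Plk1 and Lmnb1) had one in 1 knockout library alone. Cdk4 had one in all 4 libraries, and 4 genes (Ccnd1, Ccnd2, Cdk6 and Bub1) had one in both wild-type libraries and in neither knockout library. The other 18 had no promoter peak in experiment 1. In experiment 2 none of the 11 genes marked only in knockout lists had a promoter peak in any of its 6 libraries, whose lists hold no peak as narrow as most of these. The same count was not made over all genes with these patterns. With a promoter of 5000 bp on either side, Top2a had a peak in the Ezh1 rescue and Mki67 in the Ezh2 rescue. Among experiment 1 peaks of at least 550 bp, Pcna alone of the 6 genes kept the pattern, and the share of all genes at this width was not computed. Without knockout replicate 2, 10 genes had it.

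These are the parts of the mm9 genome that lay under the peak of both knockout libraries at the 6 genes, shown because they are the sequences on which this pattern rests. Each is a stretch of 100 bases within the shared part, away from untranslated regions, and is read 5′ to 3′ on the strand of the gene. Capitals mark CpG dinucleotides.
Ccna2, chr3:36470077-36470176, minus strand: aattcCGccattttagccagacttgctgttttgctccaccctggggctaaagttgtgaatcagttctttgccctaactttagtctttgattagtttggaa
Ccnb1, chr13:101555567-101555666, minus strand: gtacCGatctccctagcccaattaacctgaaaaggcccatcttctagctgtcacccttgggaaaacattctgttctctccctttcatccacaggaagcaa
Mcm7, chr5:138611890-138611989, minus strand: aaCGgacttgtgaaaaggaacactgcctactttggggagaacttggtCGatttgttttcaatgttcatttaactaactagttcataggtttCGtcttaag
Pcna, chr2:132077737-132077836, minus strand: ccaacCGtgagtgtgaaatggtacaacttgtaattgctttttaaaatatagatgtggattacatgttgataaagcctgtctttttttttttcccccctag
Mki67, chr7:142907154-142907253, minus strand: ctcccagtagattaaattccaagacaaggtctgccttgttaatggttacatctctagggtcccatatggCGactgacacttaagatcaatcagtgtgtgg
Top2a, chr11:98884559-98884658, minus strand: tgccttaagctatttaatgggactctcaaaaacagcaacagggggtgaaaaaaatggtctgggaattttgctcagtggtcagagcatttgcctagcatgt

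The stretches held few CpG dinucleotides: 3 at Mcm7, 1 each at Ccna2, Ccnb1, Pcna and Mki67, and 0 at Top2a. Their GC content ran from 35.0% at Pcna to 48.0% at Ccnb1. The stretches at Ccna2, Mki67 and Top2a lay wholly within introns.

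**Figure D1:**
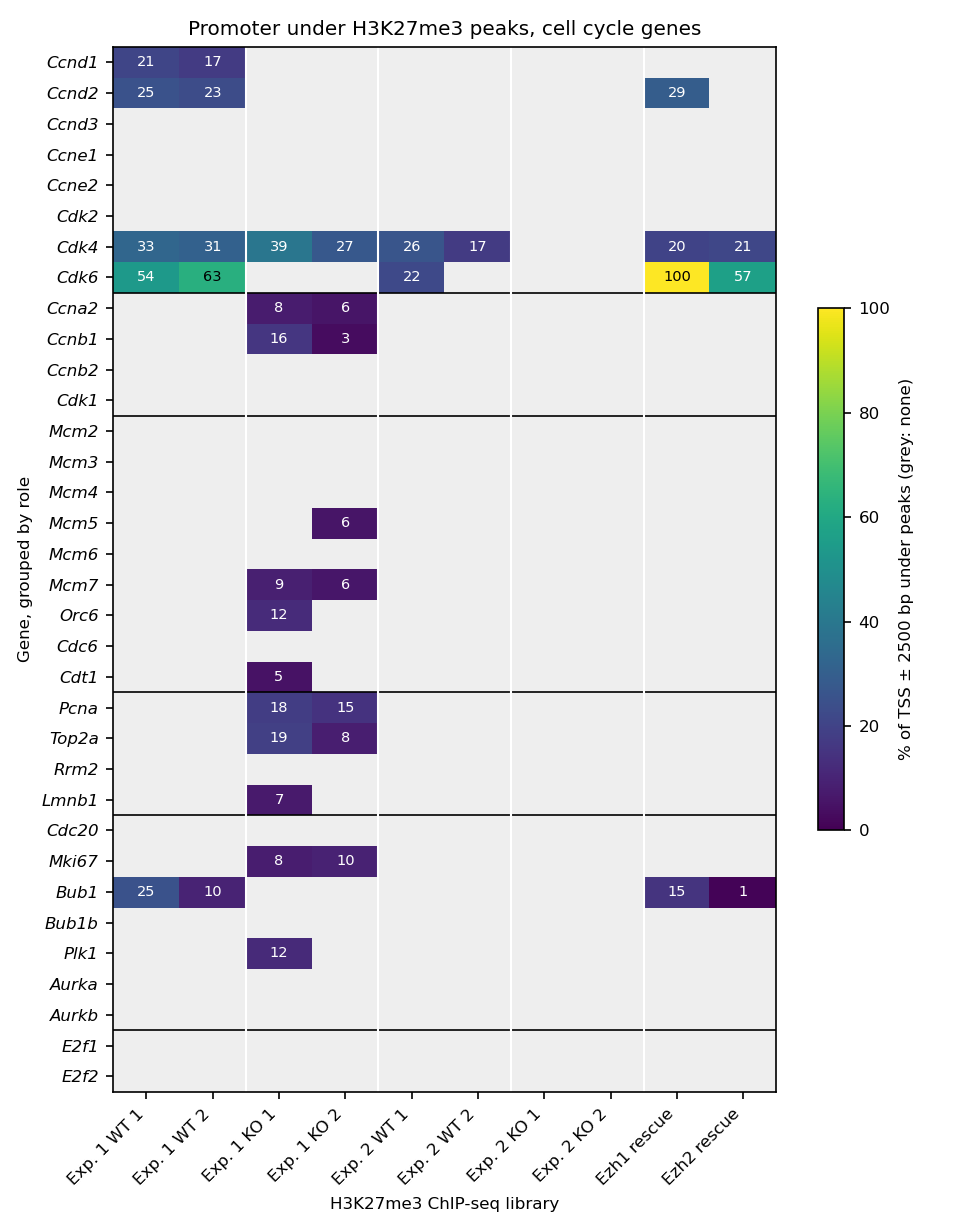
Percent of the promoter (TSS ± 2500 bp) under H3K27me3 peaks for the 34 cell cycle genes (rows, grouped by role from G1 cyclins at the top to E2F at the bottom) in the 10 libraries (columns); grey means no peak. The knockout peaks of experiment 1 lie below the G1 group, except those of Cdk4, and the 2 knockout columns of experiment 2 are empty.

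Read against all genes, the share with a knockout peak was high among these genes, as the choice of the list implies. A promoter peak in both knockout libraries of experiment 1 was present in 7 of 34 genes, or 20.6%, against 4.47% of protein-coding genes. A peak in both and in neither wild-type library was present in 17.6%, against 3.56%. A peak in 1 knockout list alone was present in 5 genes (14.7%), against 4.99%. Peaks in both wild-type libraries were present in 5 genes (14.7%), against 20.1%, and peaks in all 4 libraries in 1 gene, against 0.675%. No library of experiment 1 had a peak at 18 genes (52.9%), against 66.5%.

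**Figure D2:**
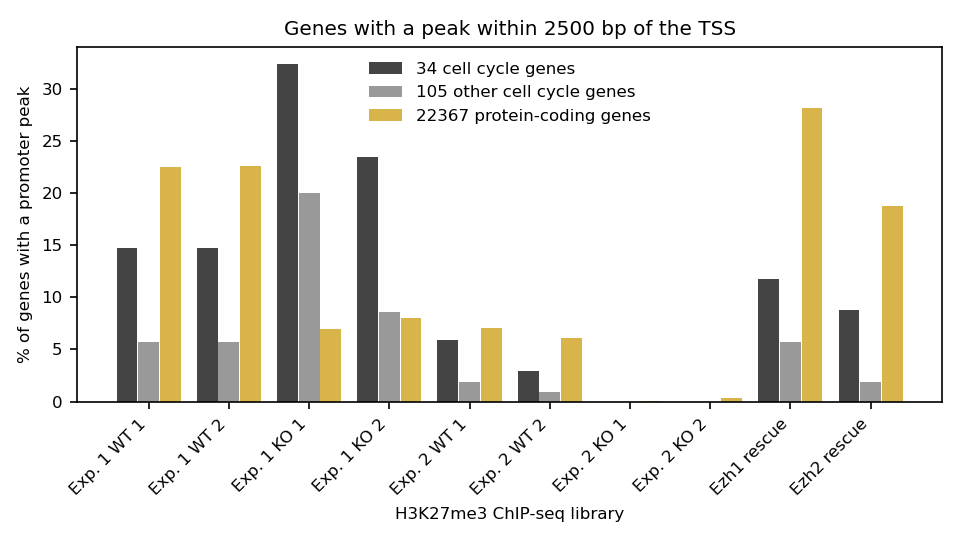
Percent of genes (vertical axis) with at least 1 bp of peak within 2500 bp of the TSS in each library (horizontal axis), for the 34 genes, 105 other cell cycle genes and all 22367 protein-coding genes. The 34 genes stand above all genes in the knockout libraries of experiment 1 (32.4% and 23.5%, against 6.99% and 8.06%) and below them in its wild-type libraries.

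Among the S and M phase cyclins and their kinase, 2 of 4 genes had the knockout pattern. Ccna2 encodes cyclin A2, which drives S phase and entry into mitosis. Peaks covered 7.52% of its promoter in knockout replicate 1 and 5.54% in replicate 2 (mean 6.53% ± 1.4, SD, n = 2), and 0 in both wild-type libraries. Ccnb1 encodes cyclin B1, the partner of Cdk1 in mitosis. Its values were 15.9% and 3.14% (9.52% ± 9.02, SD, n = 2), an SD about as large as the mean. Ccnb2, the other B-type cyclin, and Cdk1, the mitotic kinase, were at 0 in all 10 libraries.

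Among the 9 licensing genes, which load the replicative helicase onto origins, 1 had the pattern in both knockout lists and 3 in 1 list. Mcm7, a subunit of the helicase, had 8.76% and 5.88% of its promoter under peaks (7.32% ± 2.04, SD, n = 2). Orc6, of the origin recognition complex, had 12.2% in knockout replicate 1 and 0 in replicate 2, and Cdt1, a helicase loader, had 4.96% and 0. Mcm5 had 0 and 5.62%. The other helicase subunits, Mcm2, Mcm3, Mcm4 and Mcm6, and the loader Cdc6 had no promoter peak in any library. The start of Ap4m1, on the other strand, lies 420 bp downstream of the annotated start of Mcm7, and 1 of the 10 annotated transcript starts of Mcm7 lies within the shared knockout segment.

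Among the 4 genes of DNA synthesis and chromosome structure, Pcna and Top2a had the pattern in both lists. Pcna encodes the sliding clamp of DNA polymerase. Its values were 18.0% and 14.6% (16.3% ± 2.4, SD, n = 2), and the replicates shared a 729-bp segment, the longest of the 6. Top2a encodes topoisomerase II alpha, which untangles chromosomes before division. It had 19.0% and 8.36% (13.7% ± 7.52, SD, n = 2). Lmnb1, encoding lamin B1 of the nuclear envelope, had 7.04% in knockout replicate 1 alone. Rrm2, a subunit of ribonucleotide reductase, had none.

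Among the 7 mitosis genes, Mki67, which encodes the proliferation marker Ki-67, had 8.2% and 9.66% (8.93% ± 1.03, SD, n = 2). Plk1, a mitotic kinase, had 11.9% in knockout replicate 1 and 0 in replicate 2. Bub1, a kinase of the spindle checkpoint, had the wild-type pattern, with 25.0% and 9.94% in wild type (17.5% ± 10.6, SD, n = 2), 0 in the knockout, 15.0% with Ezh1 rescue and 1.02% with Ezh2 rescue. Those peaks lay upstream, and all but that of the Ezh2 rescue overlapped the neighbouring gene Acoxl. Bub1b, Aurka, Aurkb and Cdc20 had no promoter peak. Neither of the E2F genes, E2f1 and E2f2, had a promoter peak in any library.

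None of the 8 G1 cyclins and kinases had the knockout-only pattern, which 3.56% of all genes had, so its absence among 8 genes says little. The wild-type pattern was present in 3, and 20.1% of all genes had peaks in both wild-type libraries. Cdk4 is also of this group and had the widest knockout promoter coverage of the 34 genes, 39.3% and 27.4%. It lies outside the knockout-only pattern because of its separate wild-type peaks upstream. Cyclins D1 and D2 pair with Cdk4 and Cdk6 to phosphorylate the retinoblastoma protein. Ccnd1 had 20.9% and 17.3% of its promoter under peaks in wild type (19.1% ± 2.55, SD, n = 2) and 0 in the other 8 libraries. Ccnd2 had 25.1% and 23.1% (24.1% ± 1.41, SD, n = 2), and 29.3% in the Ezh1 rescue. Cdk6 had 53.8% and 62.9% (58.3% ± 6.43, SD, n = 2), the widest coverage of the 34 genes in wild type. It had 100% with Ezh1 rescue and 57.0% with Ezh2 rescue. Ccne1, Ccne2 and Cdk2, which act at the entry to S phase, had no promoter peak. Neither did Ccnd3, which was marked within its body.

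A stretch from a wild-type region of Ccnd1 and of Cdk6 is shown, read in the same way.
Ccnd1, chr7:152124982-152125081, minus strand: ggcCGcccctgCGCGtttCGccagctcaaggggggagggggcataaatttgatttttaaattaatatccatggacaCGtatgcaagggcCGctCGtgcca
Cdk6, chr5:3343092-3343191, plus strand: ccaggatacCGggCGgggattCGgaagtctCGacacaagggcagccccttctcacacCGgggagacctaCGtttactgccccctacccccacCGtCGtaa

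The Ccnd1 stretch, in an intron, held 7 CpG dinucleotides and that of Cdk6, upstream of the TSS, held 8. They are the richest in CpG of 9 stretches taken in this way from wild-type regions of Ccnd1, Ccnd2, Cdk4, Cdk6 and Bub1. The other 7 held 0 to 5, a range that overlaps the 0 to 3 of the knockout stretches.

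Cdk4 was the single gene with promoter peaks in both conditions of experiment 1, and the peaks did not lie at the same place. In wild type they covered 33.2% and 31.2% of the promoter (32.2% ± 1.41, SD, n = 2), and in the knockout 39.3% and 27.4% (33.3% ± 8.41, SD, n = 2). The wild-type peaks lay upstream, from -3104 to -840 bp and from -3081 to -939 bp relative to the TSS, and the knockout peaks lay inside the gene, from 412 to 2376 bp and from 445 to 1815 bp after it. The upstream region was also under peaks in both wild-type libraries of experiment 2 and in both rescues, and the region inside the gene was under a peak in none of these. Shown are 100 bases from the shared part of the upstream and of the inner region, with CpG in capitals.
Cdk4 wild type, chr10:126498530-126498629, plus strand: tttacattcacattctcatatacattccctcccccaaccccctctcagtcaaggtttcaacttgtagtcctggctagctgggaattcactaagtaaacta
Cdk4 knockout, chr10:126501670-126501769, plus strand: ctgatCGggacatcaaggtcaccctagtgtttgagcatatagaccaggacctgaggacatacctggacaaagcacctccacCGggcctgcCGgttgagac

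All 100 bases of the knockout stretch are coding sequence, with 3 CpG dinucleotides, and the upstream stretch holds 0.

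The side of the TSS on which knockout peaks of experiment 1 lay was not named in the rule, but it comes from the same lists and is given as a description. In knockout replicate 1, all 11 promoter peaks of the 34 genes lay wholly downstream of the TSS, between 318 and 2376 bp, and in replicate 2 all 8 did, between 445 and 1915 bp. Their centres had a median distance of 994 and 926 bp. At each of Ccnb1, Cdk4 and Mcm7, 1 other annotated transcript start lay within the shared knockout segment. Among all protein-coding genes with a promoter peak, 53.6% and 41.3% had peaks downstream alone. Of the 5 genes with a wild-type peak, 1 (Ccnd1) had peaks downstream alone and 2 (Cdk4 and Bub1) upstream alone, against 15.8% and 24.7% of all such genes in wild-type replicate 1. These shares rest on few genes and were not tested, since genes of a list are not replicates.

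**Figure D3:**
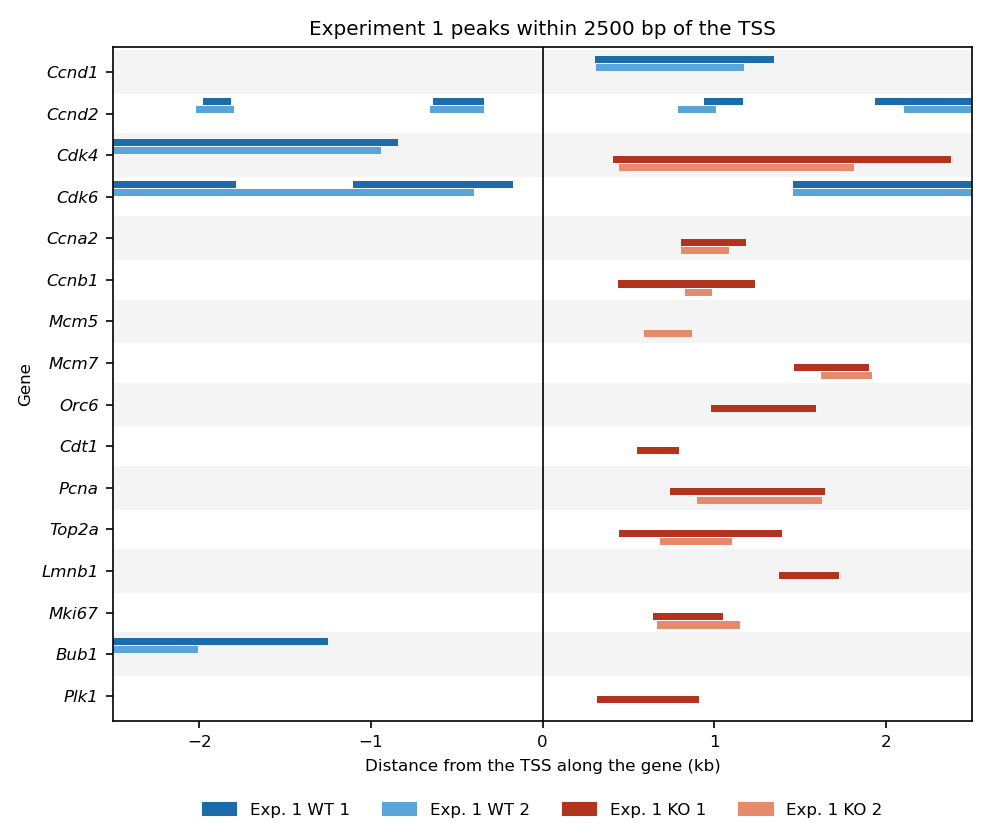
Extent of each experiment 1 peak within 2500 bp of the TSS (horizontal axis, kb along the gene, cut at 2.5 kb) for the 16 cell cycle genes that had one (vertical axis); colours are the 4 libraries. Every knockout bar lies to the right of the TSS, and the wild-type bars lie on both sides.

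The knockout peaks of the 34 genes were narrow, with medians of 594 bp (range 248 to 1965) and 356 bp (range 157 to 1371). Promoter peaks of all genes had medians of 508 and 670 bp in the same libraries, and 1530 and 1960 bp in wild type. The shared segments were 277 bp at Ccna2, 157 bp at Ccnb1, 282 bp at Mcm7, 383 bp at Mki67 and 418 bp at Top2a, and the replicate peaks at each gene overlapped. At Ccna2, Mki67 and Top2a the shared segment was entirely intronic, and at Ccnb1 27.4% of it was coding.

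**Figure D4:**
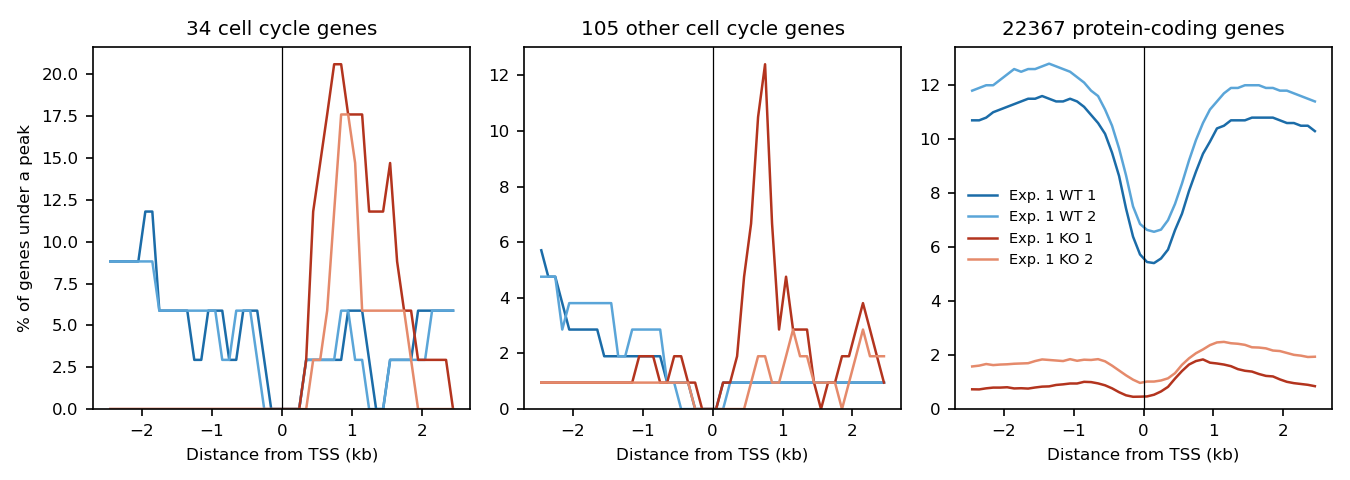
Percent of genes under a peak (vertical axis, scaled separately in each panel) in bins of 100 bp around the TSS (horizontal axis, kb), for the 34 genes, 105 other cell cycle genes and all protein-coding genes, in the 4 libraries of experiment 1. In the 34 genes the knockout curve of replicate 1 is highest at 750 and 850 bp downstream (7 genes at each). That of replicate 2 is highest at 850 and 950 bp (6 genes at each). Those of all genes are highest at 850 bp in replicate 1 and 1150 bp in replicate 2 (1.84% and 2.49% of genes).

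Over 50 kb on either side of the gene, the 4 genes of the wild-type pattern had a median of 18.8% and 21.3% under peaks in the wild-type libraries, and Cdk4 had 21.8% in both. The 6 genes of the knockout pattern had a median of 3.67% and 4.21%, and all protein-coding genes 2.65% and 2.88%. The 6 genes varied widely, from 0 in both libraries at Ccnb1 and Pcna to 18.2% and 17.2% at Mki67 and 34.8% and 20.7% at Top2a, and so overlapped the wild-type pattern, whose lowest values were 11.8% and 12.8% at Cdk6. In both knockout libraries the median was 0 for every pattern. In the Ezh1 rescue the wild-type pattern had 29.7%, against 6.7% of all genes.

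Gene bodies gave a second view of the same lists. A gene body peak in both knockout libraries of experiment 1 was present in 8 of 34 genes (23.5%), against 9.01% of all genes, and one in both wild-type libraries in 4 genes (11.8%), against 21.9%. Bub1b, a checkpoint kinase with no promoter peak, was among the 8, with 3.11% and 1.35% of its body under knockout peaks 6353 to 7709 bp after the TSS. Cdk4 had 44.8% and 31.3% of its body under knockout peaks (38.0% ± 9.55, SD, n = 2) and 0 in wild type.

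Ccnd3, encoding cyclin D3, had no peak at its promoter in any list, but its body carried 15 and 14 peaks in the wild-type libraries of experiment 1. They covered 17.5% and 26.2% of it (21.9% ± 6.15, SD, n = 2), between 11328 and 86608 bp after the TSS, and the knockout had none. Counted from any annotated transcript start, Ccnd3 had a promoter peak in both wild-type libraries and in the Ezh1 rescue. In experiment 2 the wild-type values were 4.17% and 0.581%, and the rescue values were 53.2% for Ezh1 and 13.9% for Ezh2. Cdk6 had 0.989% and 0.757% of its body under peaks in wild type of experiment 1, 10.6% with Ezh1 rescue and 2.45% with Ezh2 rescue. In the Ezh1 rescue 1 peak of 18950 bp spanned its TSS. Gene body peaks were present in 2 of 34 genes with Ezh1 rescue, against 30.0% of all genes, and in 2 with Ezh2 rescue, against 23.2%.

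**Figure D5:**
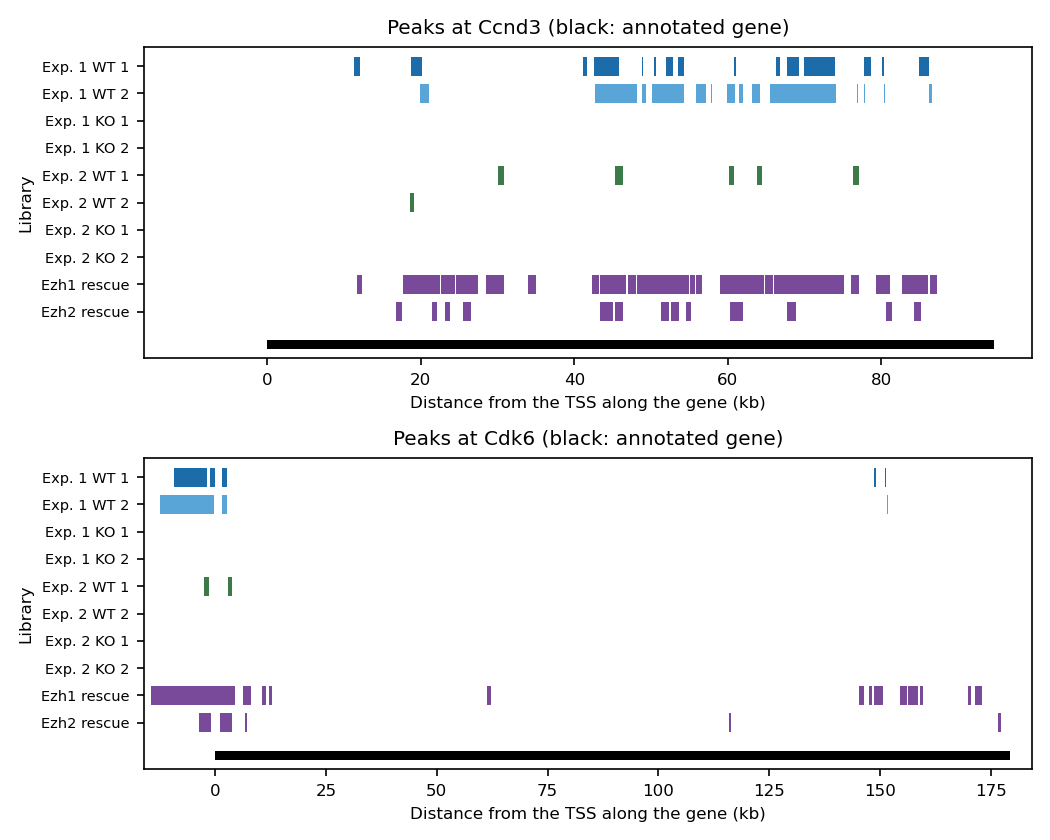
Positions of all peaks at Ccnd3 and Cdk6 (horizontal axis, kb from the TSS along the gene) in the 10 libraries (vertical axis); the black bar is the annotated gene. At Ccnd3 the peaks lie within the gene from about 11 kb on, and the 4 knockout rows are empty at both genes.

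Experiment 2 has replicates too, but its lists were among the 10 that chose the genes, so its values are also given with no test. A promoter peak in either wild-type library was present in 2 of the 34 genes, Cdk4 and Cdk6, against 10.0% of all genes, and in either knockout library in 0, against 0.38%. The nearest knockout peak lay 98.6 kb from the TSS of any of the 34 genes. At Cdk4, 26.2% and 17.2% of the promoter was under peaks in wild type (21.7% ± 6.36, SD, n = 2) and 0 in both knockout libraries. At Cdk6 wild type had 22.2% and 0 (11.1% ± 15.7, SD, n = 2) and the knockout had 0, so the groups overlapped. For the body of Ccnd3 the wild-type mean was 2.38% ± 2.54 (SD, n = 2) against 0, and for that of Cdk6 it was 0.223% ± 0.315 (SD, n = 2) against 0. The spread between libraries may be technical where replicates were not separate cultures.

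The rescues had 1 library each and so no test. Promoter peaks in the Ezh1 rescue were present at Ccnd2, Cdk4, Cdk6 and Bub1, 4 of 34 genes (11.8%) against 28.2% of all genes, and those of the Ezh2 rescue at Cdk4, Cdk6 and Bub1, 3 genes (8.82%) against 18.8%. All of them were genes marked in wild type of experiment 1, an overlap that was not counted over all genes. It held for the promoter of 2500 bp on either side and not for that of 5000 bp, which added genes without a wild-type promoter peak. Coverage was higher in the Ezh1 than in the Ezh2 rescue at Ccnd2, Cdk6 and Bub1 and lower at Cdk4 (20.2% against 21.2%). Total covered length was larger in the Ezh1 rescue at 256 Mb against 80.6 Mb. The paper reports the other direction for the level of the mark, which was lower globally and weaker over the genome with Ezh1 rescue. The study's methods describe a scaling of the knockout and of the Ezh1 rescue by the amount of DNA immunoprecipitated. The lists do not show it as applied or not. Covered length therefore cannot be read as the level of the mark in the knockout or in either rescue.

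The sequence of the promoters was not used in the choice. In the window from 250 bp before to 50 bp after the TSS, the 34 genes had a median CpG observed to expected ratio of 0.933, against 0.534 for all protein-coding genes, and a median GC content of 61.2% against 55.0%. E2F sites were searched on both strands as TTTCCCGC or TTTGGCGC or TTTCGCGC or TTTGCCGC, and were found in 10 of 34 promoters (29.4%) against 2.72% of all. The CHR element, as TTTGAA or TTCGAA, was found in 13 (38.2%) against 17.8%, the CCAAT box in 24 (70.6%) against 37.9%, and the E-box CACGTG in 5 (14.7%) against 7.78%. By pattern, an E2F site was present in 8 of the 18 genes without a peak, 2 of 5 with a peak in 1 knockout list, 0 of 6 with the knockout pattern and 0 of 4 with the wild-type pattern. In the same order, the CHR element was present in 7, 2, 2 and 2 of these genes, the CCAAT box in 16, 4, 3 and 1, and the E-box in 2, 1, 0 and 1. A match is a description of letters and was not tested against the peaks. The window lay at the annotated start of the gene, and other transcript starts were not searched. The shared knockout segment of Mcm7 lay 1622 bp after that start and 217 bp after a nearer transcript start. At Pcna these distances were 899 and 181 bp. A gene without a match here may therefore hold one at another start.

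The 120 bases before the TSS are shown for Mki67 and Top2a, from the knockout pattern, and for Cdk1 and Mcm6, which had no peak, because they carry the motifs counted here. Capitals mark the matches of the motifs on either strand (the CCAAT box on the other strand reads ATTGG).
Mki67, chr7:142908063-142908182, minus strand: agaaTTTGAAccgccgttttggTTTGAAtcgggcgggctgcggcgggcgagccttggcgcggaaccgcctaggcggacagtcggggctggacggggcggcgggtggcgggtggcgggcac
Top2a, chr11:98885504-98885623, minus strand: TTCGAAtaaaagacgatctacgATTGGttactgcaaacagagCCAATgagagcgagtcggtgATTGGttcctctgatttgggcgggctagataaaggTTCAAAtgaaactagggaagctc
Cdk1, chr10:68815687-68815806, minus strand: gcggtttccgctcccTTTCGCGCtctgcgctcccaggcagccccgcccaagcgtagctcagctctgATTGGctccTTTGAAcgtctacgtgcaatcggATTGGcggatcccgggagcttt
Mcm6, chr1:130256234-130256353, minus strand: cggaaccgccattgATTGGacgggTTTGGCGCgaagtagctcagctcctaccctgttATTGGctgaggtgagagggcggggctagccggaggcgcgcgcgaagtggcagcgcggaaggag

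The promoters of Mki67 and Top2a each held 2 CHR matches in these 120 bases and no E2F match, and that of Cdk1 held 1 E2F, 1 CHR and 2 CCAAT matches. The same 120 bases of Cdk4, not shown, held 3 E-boxes. None of the printed promoters overlapped a knockout peak. The knockout peaks of Mki67 and Top2a lay farther downstream, and Cdk1 and Mcm6 had none.

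A wider list of 105 other cell cycle genes was examined for the same patterns. Of these, 8 carried one in each knockout library of experiment 1 and in neither wild-type library (7.62%, against 3.56% of all genes): Orc1, Orc2, Wee1, Fbxo5, Cks1b, Incenp, Birc5 and Smc4. A further 13 had one in 1 knockout list alone (12.4%, against 4.99% of all genes), and all of these but Ccnf had it in replicate 1. In knockout replicate 1, 21 of the 105 genes had a peak, against 6.99% of all genes, and in replicate 2, 9 of them (8.57%) did, against 8.06%, so the excess was seen in replicate 1 and was small in replicate 2. The peaks lay downstream alone in 18 of 21 and 8 of 9 genes, against 53.6% and 41.3% of all genes with a promoter peak. Orc2, an origin recognition subunit, had the widest coverage, 45.1% and 43.0%. Its peaks were an exception and lay upstream, from -3708 to -247 bp in replicate 1 and from -4292 to -350 bp in replicate 2. Fbxo5, an inhibitor of the anaphase-promoting complex, had 10.4% and 14.8%, Cks1b, a Cdk-binding protein, 13.6% and 7.96%, Smc4, a condensin subunit, 16.1% and 4.78%, and Incenp, of the chromosomal passenger complex, 5.52% and 11.5%.

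In the wider list 5 genes had peaks in both wild-type libraries (4.76%, against 20.1%). Ccna1, the germline cyclin A, had 82.5% and 81.7% of its promoter under peaks, 100% with Ezh1 rescue and 49.0% with Ezh2 rescue. E2f6, a repressive E2F, had 44.5% and 39.4%, Cdc7, a kinase of origin firing, 18.2% and 22.3%, E2f5 2.4% and 15.2%, and Bub3, of the spindle checkpoint, 7.68% and 5.66%, with 3.96% in knockout replicate 1. No gene of the wider list had a promoter peak in a knockout library of experiment 2.

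Of the 8 inhibitors of cyclin-dependent kinases, Cdkn1a, encoding p21, was the most widely marked. Its promoter coverage was 95.5% and 95.3% in wild type of experiment 1 and 72.5% and 56.5% in wild type of experiment 2. It was 100% with Ezh1 rescue, 83.5% with Ezh2 rescue and 0 in all 4 knockout libraries. Cdkn1c had 34.1% and 44.6% in wild type, 32.1% in knockout replicate 2 of experiment 1 and 47.0% in the Ezh1 rescue. Cdkn1b and Cdkn2c had a peak in knockout replicate 1 alone (12.4% and 19.4%), and Cdkn2a, Cdkn2b, Cdkn2d and Cdkn3 had none in any library.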

How the data were processed

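H3K27me3 was measured by ChIP-seq after micrococcal nuclease digestion, and 10 deposited peak lists of 6 conditions were used. The 2 input samples were not analysed here. According to the study's methods, the authors aligned reads to mm9, took out duplicates and reduced libraries to a common read number. They scaled the knockout and the Ezh1 rescue by the amount of DNA immunoprecipitated, and called peaks per sample against input. The lists do not show whether the scaling was applied. Tools named in the submitters' processing notes are MACS2 2.0.10, HOMER 3.17, SAMtools, Bowtie2 2.1.0 and Bowtie 0.12.8. The deposited files give a chromosome with start and end positions and no count, score or p-value. Repeated lines and mitochondrial peaks were left out.

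Genes and starts were taken from GENCODE M1 on mm9, and positions are 1-based. A promoter peak is an overlap of at least 1 bp with the TSS ± 2500 bp. Groups and replicate numbers came from the sample labels. The 34 genes and all lists were chosen with earlier results of these data known. All members are named by role, the wider list by its 5 widest genes per pattern, and every inhibitor is named. A planned exact permutation test of experiment 2 is not reported, since its lists were among those that chose the genes. Counting of overlaps was tested on 2000 simulated windows, with 0 mismatches. Alternatives changed the promoter window, start site, minimum width, joining of peaks, overlap and libraries. Python 3.11.15, NumPy 2.4.6, pandas 2.3.3, SciPy 1.17.1 and matplotlib 3.10.9 were used.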

Additional observations from a re-analysis of the deposited data

How the results depend on the processing

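The knockout counts depended on the minimum peak width. With peaks of at least 550 bp alone, 2 of 34 genes kept a promoter peak in both knockout libraries of experiment 1 (Pcna and Cdk4) and 1 of the 6 kept the knockout-only pattern (Pcna), and with at least 1000 bp the counts were 1 and 0. Requiring 10% of the promoter under peaks left 2 and 1. The share of all genes was not computed at these cut-offs, here or for the comparison with wild type below. Whether the 34 genes still stood above all genes there is therefore not known. Leaving out a library gave 8 to 11 genes with a peak in the knockout (11 without knockout replicate 2) and 6 to 10 with the knockout-only pattern (10 without knockout replicate 2), because fewer lists had to hold a peak. With at least 1000 bp, 3 genes had a peak in both wild-type libraries. With a promoter of 1000 bp on either side, 2 genes had a peak with Ezh1 rescue, 1 with Ezh2 rescue and 0 in wild type of experiment 2. With 5000 bp, 6 had one in the Ezh2 rescue and 4 in wild type of experiment 2. Without chromosome 5, which holds Cdk6 and Mcm7, 1 had one in wild type of experiment 2, and leaving out a library there gave 1 to 2. The count in the knockout of experiment 2 was 0 under all alternatives run. Peaks in both knockout libraries were thus more frequent than in both wild-type libraries at 7 against 5 genes, and less frequent at 2 against 5 with at least 550 bp, 1 against 3 with at least 1000 bp and 2 against 4 with 10% of the promoter. The Ezh1 and Ezh2 rescue had 4 and 3 genes, and 5 and 6 with a promoter of 5000 bp. The wider promoter added Top2a in the Ezh1 rescue, and Ccnd2, Mcm3 and Mki67 in the Ezh2 rescue. Joined peaks moved none of the counts by over 1.5 times. With all annotated genes as background, the share with the knockout-only pattern was 3.98%.

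The labels do not say whether same-numbered wild-type and knockout libraries were prepared together, and peak coverage does not record it. The correlation of their replicate differences over genes was 0.0332 in experiment 1 and -0.0277 in experiment 2. The wild type minus knockout difference of experiment 2 was 21.7 percentage points at Cdk4 and 11.1 at Cdk6. A replicate block leaves this mean the same by arithmetic, since the groups are of equal size.

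No depth is given in the lists, so a promoter without a peak cannot be told apart from one whose signal was below the caller's threshold.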
